A study of Mus musculus with 12 samples.

Results

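The heat shock proteins and their DnaJ cochaperones were examined in liver sinusoidal endothelial cells, the cells that line the fenestrated capillaries of the mouse liver, in 6 NICD-OE-HEC samples and 6 Control samples. The members were chosen by gene symbol alone: symbols that begin with Hspa, Hspb, Hspd, Hspe, Hsph or Hsp90, those made of Dnaja, Dnajb or Dnajc and a number, and the heat shock factor Hsf2. Another heat shock factor that the rule names was not analysed here. They were 72 of the 24705 probe sets with a gene symbol, out of 25428 probe sets in all, with 1 probe set per member. The symbol rule also took in Hspbp1 and Hspbap1, which bind heat shock proteins and are not chaperones of these families themselves. Expression was read on Affymetrix arrays, 1 per sample, as log2 values normalized by RMA.

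NICD-OE-HEC mice carried 1 Clec4g-Cre transgene and the Rosa26-N1ICD-IRES-GFP allele, so that Cre driven by the promoter of Clec4g, a lectin gene of liver sinusoidal endothelium, switches on the Notch1 intracellular domain together with GFP. The Control mice are labelled only as Ctrl, and no source used here states their alleles. In both groups each sample pooled the livers of 3 mice, which were perfused with collagenase, digested for 25 minutes at 38 °C and passed over a 19.3% Nycodenz gradient before magnetic selection for CD146. Both groups therefore went through the same warm digestion, and how heat shock genes stood before it was not measured.

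Heat shock proteins hold unfolded or newly made proteins until they reach their shape. HSP70 proteins bind and release such clients in cycles of ATP hydrolysis. J-domain proteins, the DnaJ family, deliver the clients and start the hydrolysis, and nucleotide exchange factors end the cycle. In stressed cells a heat shock factor binds repeats of the sequence nGAAn in promoters and drives a subset of these genes, the inducible ones, while most of the others are made all the time in the cytosol, the mitochondria or the endoplasmic reticulum.

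The promoter stretches of 3 members are shown because the pair Hspa1a and Hspa1b, and the gene Hspe1, which lies beside Hspd1 in the RefSeq gene order, carry results given further on. Each holds the 200 bases before the annotated start of the gene on the gene's own strand, from RefSeq with build GRCm38.p6. Hspa1a lies at chr17:34972157-34972356 (minus strand), Hspa1b at chr17:34959239-34959438 (minus strand) and Hspe1 at chr1:55087948-55088147 (plus strand). Capitals mark the matches to the paired heat shock unit.
Hspa1a: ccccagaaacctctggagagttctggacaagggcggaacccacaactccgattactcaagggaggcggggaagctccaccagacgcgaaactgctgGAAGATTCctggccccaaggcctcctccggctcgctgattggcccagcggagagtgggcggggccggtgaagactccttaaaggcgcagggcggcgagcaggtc
Hspa1b: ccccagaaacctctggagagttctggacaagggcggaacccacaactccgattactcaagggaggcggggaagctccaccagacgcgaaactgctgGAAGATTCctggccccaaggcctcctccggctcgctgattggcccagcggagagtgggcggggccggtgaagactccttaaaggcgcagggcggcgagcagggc
Hspe1: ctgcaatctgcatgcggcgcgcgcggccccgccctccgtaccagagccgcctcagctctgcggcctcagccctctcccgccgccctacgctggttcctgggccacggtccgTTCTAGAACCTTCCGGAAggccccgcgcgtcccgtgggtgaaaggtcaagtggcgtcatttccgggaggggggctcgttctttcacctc

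The Hspa1a and Hspa1b stretches differ at 1 of 200 positions, and the full windows, which run from 250 bases before the start to 50 after it, have the same base at 296 of 300 positions. Both hold GAAGATTC between -104 and -97, counted from the annotated start. The Hspe1 stretch holds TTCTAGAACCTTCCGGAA between -89 and -72, in which 3 paired units overlap. The paired unit was searched as GAANNTTC and TTCNNGAA, which together cover both strands, and the run of 3 units as GAANNTTCNNGAA and TTCNNGAANNTTC. Promoter windows were found for 60 of the 72 members. A paired unit stood in a window of 15 of these 60 genes (25.0%), against 17.0% of 27025 genes. A run of 3 units stood in 4 of 60 (6.67%), against 0.662% of all genes. Those 4 were Hspd1, Hspe1, Hsph1 and Dnajb6, and the windows of Hspd1 and Hspe1 share 285 bases, so they are not separate matches. The windows of Dnajb1 held neither form. These are matches of letters, not measured binding.

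Before the results, the arrays were checked. Arrays of the same group correlated at 0.976 to 0.992. The Notch target Hey1 was higher in NICD-OE-HEC (log2 difference 2.70, adjusted p = 4.15e-08), while Notch1 itself differed by 0.19 (adjusted p = 0.486), and whether its probe set lies in the transgene is not known. All 14 sinusoidal endothelial markers were read above the array median of 3.67 in at least 1 group, and 11 of the 14 were lower and 2 higher in NICD-OE-HEC. Their mean ran from 10.55 to 10.74 in NICD-OE-HEC and from 11.04 to 11.29 in Control. The means of markers of other cells ran from 7.09 to 8.53 in NICD-OE-HEC and from 6.44 to 7.84 in Control for 14 hepatocyte genes (7 higher, 0 lower). For 11 Kupffer cell genes they ran from 7.93 to 9.36 in NICD-OE-HEC and from 7.68 to 8.93 in Control (1 higher, 0 lower), and for 10 neutrophil genes from 4.84 to 6.59 in NICD-OE-HEC and from 3.38 to 4.51 in Control (7 higher, 0 lower). For 11 stellate cell genes they ran from 5.47 to 5.89 in NICD-OE-HEC and from 4.92 to 5.89 in Control (3 higher, 2 lower), for 5 cholangiocyte genes from 4.38 to 4.94 in NICD-OE-HEC and from 3.72 to 4.12 in Control (5 higher, 0 lower), and for 9 lymphocyte genes from 3.04 to 4.02 in NICD-OE-HEC and from 3.33 to 3.60 in Control (0 called). In bulk cells, fewer cells of a type and less RNA per cell cannot be told apart, and the part of these other cells in the chaperone results was not tested.

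The question of the comparison is how chaperone genes change under forced Notch activity in the hepatic endothelium. Of the 72 members, 10 differed at an adjusted p under 0.05 by limma (13.9%), against 10.5% of all probe sets. 6 were higher in NICD-OE-HEC, where 4.89% of all probe sets were, and 4 were lower, against 5.59% of all probe sets. The share called among the members lies near that of all probe sets. At an unadjusted p under 0.05 it was 27 of 72 members (37.5%), against 21.7% of all probe sets. The median difference was -0.02 for the members and -0.01 for all probe sets, with 33 members above 0 and 39 below. Differences ran from -0.51 for Hspa12a to 0.92 for Hspa1b. The groups did not overlap for 3 members (4.17%), against 6.68% of all probe sets. In 9 members both group means lay below the array median. Without detection calls, whether such values lie above background is not known. The classes are described in turn below and drawn in the plot of all 72 differences. For every class and list, the count of calls is to be read against the 10.5% called over all probe sets.

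**Figure D1:**
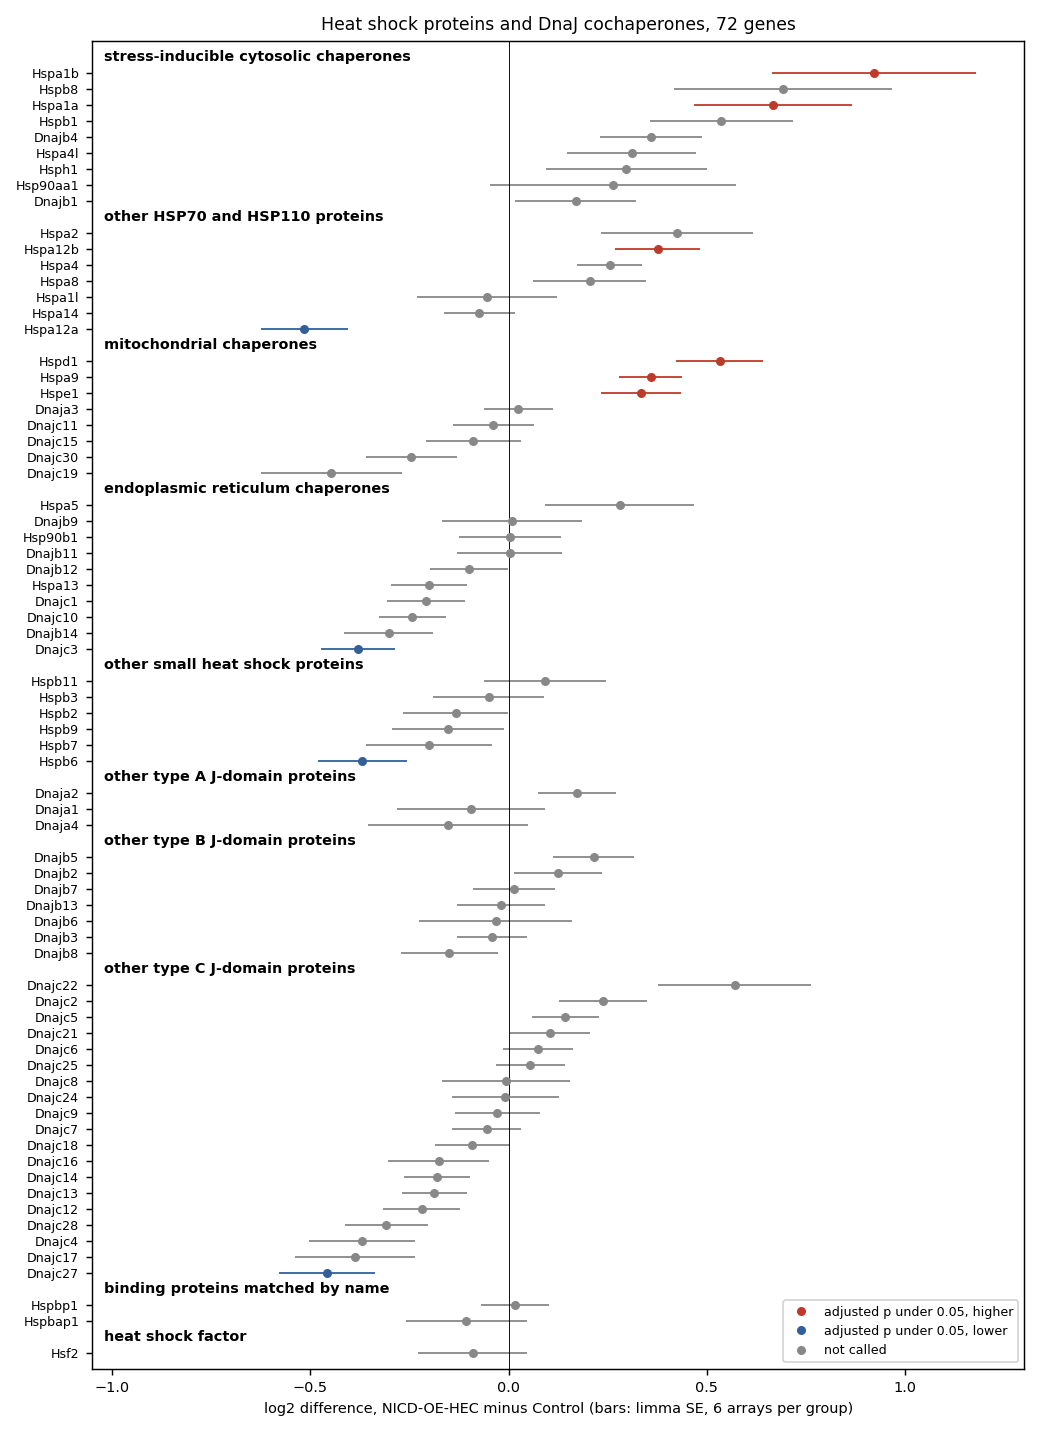
Log2 difference (NICD-OE-HEC minus Control) of each of the 72 members, grouped by class, with limma's standard error as bars and 6 arrays per group. Red points passed the adjusted p threshold as higher (6 members) and blue points as lower (4 members). All 9 stress-inducible cytosolic chaperones, a class set after the values were seen, lie right of 0. In the mitochondrial class 3 members stand apart from the rest.

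Among the 9 stress-inducible cytosolic chaperones, Hspa1b and Hspa1a were higher in NICD-OE-HEC and 0 were lower. All 9 had positive differences, with a median of 0.36 and a range from 0.17 to 0.92, and 5 of the 9 had an unadjusted p under 0.05 (55.6%, against 21.7% of all probe sets). The class was set after the values were seen, so the shared direction may depend on the sorting. Members outside the class whose windows hold a paired unit went both ways, from -0.46 for Dnajc27 to 0.53 for Hspd1. Among them, Dnaja4 differed by -0.15 and Dnaja1 by -0.09. The groups overlapped for each of the 9, and the median pooled SD of the class was 0.39, against 0.21 for all probe sets.

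Hspa1b encodes an inducible cytosolic HSP70 that is nearly identical to the product of Hspa1a. Its log2 value was 9.40, 10.19, 10.28, 10.72, 10.78 and 9.59 in NICD-OE-HEC replicates 1 to 6, against 9.45, 9.37, 9.08, 8.70, 10.00 and 8.83 in Control replicates 1 to 6. NICD-OE-HEC replicates 1 and 6 lay within the Control range, and the other 4 lay above every Control sample. The mean was 10.16 ± 0.57 in NICD-OE-HEC and 9.24 ± 0.47 in Control (SD, n = 6 each), a difference of 0.92 (SE 0.26, 95% interval 0.37 to 1.47), or 1.89-fold, with a limma adjusted p of 0.0316. The two-sided exact permutation test over the 924 assignments of arrays gave p = 0.0152 (the smallest it can give is 0.00216). The call was lost when any 1 of NICD-OE-HEC replicates 2, 3, 4 or 5 or Control replicates 3, 4 or 6 was left out, with differences of 0.80 to 1.07 and adjusted p of 0.0105 to 0.0790 over the 12 omissions.

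Hspa1a, the neighbouring copy, read 10.63, 11.06, 10.56, 10.85, 11.44 and 10.24 in NICD-OE-HEC, against 10.18, 10.01, 10.29, 9.70, 10.75 and 9.87 in Control. The highest NICD-OE-HEC and the highest Control value both belonged to replicate 5 of their group, and Control replicate 5 lay above NICD-OE-HEC replicates 1, 3 and 6. The mean was 10.80 ± 0.42 in NICD-OE-HEC and 10.13 ± 0.37 in Control (SD, n = 6 each), a difference of 0.67 (SE 0.20, 95% interval 0.24 to 1.09), or 1.59-fold, with a limma adjusted p of 0.0445 and an exact permutation p of 0.0195. This call was the more fragile: it was lost in 10 of the 12 omissions of a single array, that is without any array other than NICD-OE-HEC replicate 6 or Control replicate 5. The differences there ran from 0.54 to 0.79, with adjusted p from 0.0142 to 0.107, and an intensity trend with robust settings gave 0.0523. Because the 2 genes are nearly identical, their probe sets may share signal, and they are not independent readings. Within groups the pair correlated at r = 0.714 in NICD-OE-HEC (exact permutation p = 0.111, n = 6) and r = 0.892 in Control (exact permutation p = 0.0194, adjusted 0.0972, n = 6), and without the 2 samples farthest from the median r was 0.360 in NICD-OE-HEC and 0.427 in Control.

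Dnajb1, the J-domain partner of inducible HSP70 and itself a heat shock gene, did not pass the test. It read 6.13, 6.55, 6.70, 6.79, 7.34 and 6.72 in NICD-OE-HEC, against 6.46, 6.41, 6.56, 6.47, 6.58 and 6.75 in Control. NICD-OE-HEC replicate 1 was the lowest of all 12 arrays and replicate 5 the highest, so the NICD-OE-HEC samples spread around the Controls on both sides. The difference was 0.17 (95% interval -0.16 to 0.49, adjusted p = 0.608), with an SD of 0.39 in NICD-OE-HEC and 0.12 in Control and an exact permutation p of 0.390.

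The other inducible members did not pass the test either. Hspb1, or HSP27, a small heat shock protein that holds unfolding proteins, read 5.22 to 6.37 in NICD-OE-HEC, against 4.98 to 5.37 in Control. 4 of its 6 NICD-OE-HEC samples lay above every Control, and the difference was 0.54 (adjusted p = 0.0768). It passed the threshold when NICD-OE-HEC replicate 2 or 6 was left out. Hspb8, a small heat shock protein that works with a BAG protein in selective autophagy, read 3.33 to 5.46 in NICD-OE-HEC, against 3.18 to 3.77 in Control. Its difference was 0.69 (adjusted p = 0.141). The Control mean, 3.38, lies below the array median, so the size of the change is uncertain. The highest Hspb8 value, 5.46, was in NICD-OE-HEC replicate 1. Of all arrays, that sample also had the highest neutrophil (6.59), hepatocyte (8.53) and Kupffer cell (9.36) marker means. The part of these other cells in that value was not tested.

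Dnajb4, a J-domain protein close to Dnajb1, averaged 6.32 in NICD-OE-HEC and 5.96 in Control, a difference of 0.36 (adjusted p = 0.0974). Hspa4l and Hsph1 encode HSP110 proteins, which serve HSP70 as nucleotide exchange factors. Their differences were 0.31 for Hspa4l (adjusted p = 0.302) and 0.30 for Hsph1 (95% interval -0.14 to 0.73, adjusted p = 0.462). Hsp90aa1, the inducible cytosolic HSP90, ranged from 4.21 to 6.32 in NICD-OE-HEC, against 4.08 to 5.19 in Control, and differed by 0.26 (95% interval -0.40 to 0.93, adjusted p = 0.719). Intervals as wide as those of Hsph1 and Hsp90aa1 include changes as large as the one in Hspa1a, so these 6 arrays per group do not show that they stayed level.

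**Figure D2:**
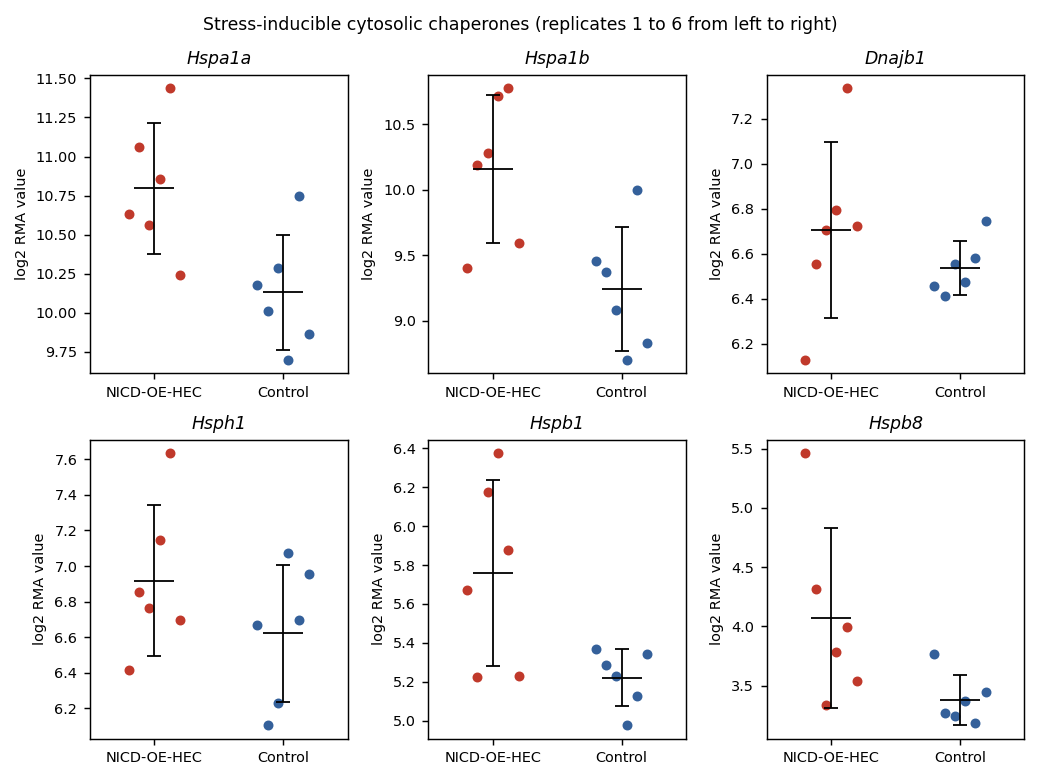
Log2 RMA value of 6 stress-inducible chaperones on each array, NICD-OE-HEC left and Control right, with the mean and SD (n = 6 each) as bars and replicates 1 to 6 running from left to right within a group. The groups overlap in every panel, Hspa1a and Hspa1b have the clearest shift, and the wide NICD-OE-HEC spread of Dnajb1 (6.13 to 7.34) surrounds the narrow Control spread.

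Early-response genes such as Fos and Egr1, which are switched on within minutes of disturbance, were set beside the inducible chaperones array by array. Of 27 measured genes of that list, 17 were higher and 1 lower in NICD-OE-HEC (66.7% called, against 10.5% of all probe sets). The median difference of these genes was 0.98. Their mean was 6.93, 7.17, 7.52, 7.50, 8.37 and 7.39 in NICD-OE-HEC, against 6.53, 6.25, 6.50, 6.13, 7.12 and 6.67 in Control. NICD-OE-HEC replicate 5, the highest of the 12, was also the highest for 4 of the 9 inducible members (Hspa1a, Hspa1b, Dnajb1 and Hsph1) and for Hspa8. The other 5 peaked elsewhere: Hspb1, Dnajb4, Hspa4l and Hsp90aa1 in NICD-OE-HEC replicate 4 and Hspb8 in NICD-OE-HEC replicate 1. Control replicate 5 was the highest Control for the early-response mean, Hspa1a and Hspa1b, and NICD-OE-HEC replicate 1 was the lowest NICD-OE-HEC sample for the early-response mean, Hspa1b and Dnajb1.

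Within NICD-OE-HEC, Dnajb1 had the highest correlation of the 3 marker genes with the early-response mean, at r = 0.967 (exact permutation p = 0.00556, adjusted over 10 relations 0.0556, n = 6), with a Spearman rho of 0.829 (exact permutation p = 0.0583, adjusted 0.194), and r was 0.885 without the 2 samples farthest from the median. Within Control its r was 0.541 (exact permutation p = 0.274), with a rho of 0.657 (p = 0.175 by the exact test). For Hspa1a, r was 0.604 in NICD-OE-HEC (exact permutation p = 0.186; rho 0.257, p = 0.658) and 0.825 in Control (exact permutation p = 0.0472, adjusted 0.157; rho 0.600, p = 0.242). Without the 2 farthest samples these were -0.472 in NICD-OE-HEC and -0.175 in Control, so they rest on those samples. For Hspa1b, r was 0.736 in NICD-OE-HEC (exact permutation p = 0.0764; rho 0.886, p = 0.0333, adjusted 0.194) and 0.696 in Control (exact permutation p = 0.121; rho 0.600, p = 0.242), and 0.306 in NICD-OE-HEC and -0.663 in Control without the 2 farthest. By exact permutation, 0 of the 10 relations passed after adjustment, while 3 had an unadjusted p under 0.05 for r.

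When the fit took in each array's early-response mean as a covariate, the difference was 0.061 for Hspa1a (SE 0.25, adjusted p = 0.970), 0.081 for Hspa1b (SE 0.30, adjusted p = 0.966) and -0.38 for Dnajb1 (adjusted p = 0.313). The covariate itself differed between the groups, by 0.95. In that fit 502 of all 25428 probe sets were higher and 443 lower, with 0 of the 72 members among them. Of the 72 members, 8 had an unadjusted p under 0.05 there. The share of all probe sets at that level in this fit is not given here, so the 8 have no comparison. Whether the early-response level and the inducible chaperones share a cause was not tested.

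**Figure D3:**
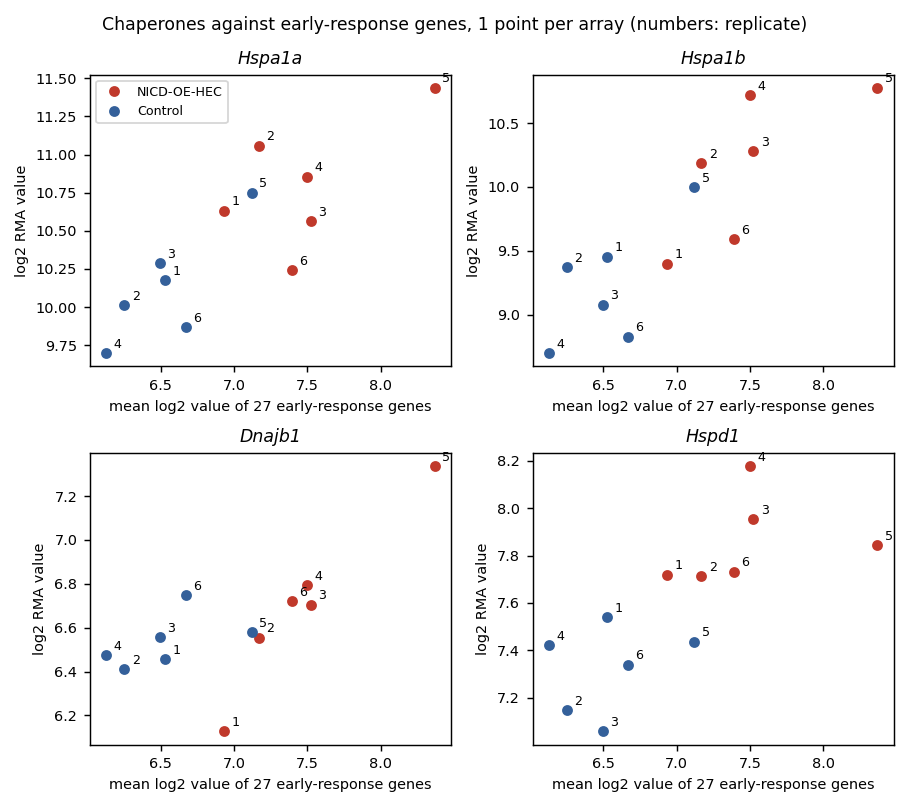
Log2 RMA value of Hspa1a, Hspa1b, Dnajb1 and Hspd1 against the mean log2 value of 27 early-response genes, 1 point per array with its replicate number, NICD-OE-HEC in red and Control in blue. NICD-OE-HEC replicate 5 sits at the upper right for the 3 cytosolic genes, at an early-response mean of 8.37, while for Hspd1 the groups stay apart by level (7.71 to 8.18 in NICD-OE-HEC, 7.06 to 7.54 in Control).

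The median difference of the 7 other HSP70 and HSP110 proteins was 0.20. Of them, 1 was higher and 1 lower (28.6% called, against 10.5% of all probe sets). These are the distant relatives Hspa12a and Hspa12b, which moved in opposite directions. Hspa12b, known as an HSP70 relative of endothelial cells, averaged 6.72 ± 0.16 in NICD-OE-HEC and 6.35 ± 0.19 in Control (SD, n = 6 each), a difference of 0.38 (SE 0.11, limma adjusted p = 0.0352). NICD-OE-HEC replicate 6 (6.49) lay below Control replicate 5 (6.64), and the call was lost in 9 of the 12 omissions: NICD-OE-HEC replicates 1 to 5 and Control replicates 2, 3, 4 and 6. Hspa12a read 4.80, 5.00, 4.85, 5.12, 4.92 and 4.81 in NICD-OE-HEC, against 5.40, 5.87, 5.43, 5.38, 5.22 and 5.28 in Control. Every NICD-OE-HEC value lay below every Control value, the difference was -0.51 (SE 0.11, adjusted p = 0.00597), and the call stood in each of the 12 omissions.

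Hspa8, the constitutive cytosolic HSP70, also named HSC70, averaged 11.74 ± 0.26 in NICD-OE-HEC and 11.53 ± 0.27 in Control (SD, n = 6 each), with a difference of 0.20 (adjusted p = 0.471). Hspa4, another HSP110 protein, differed by 0.25 (adjusted p = 0.0648), and Hspa2, an HSP70 best known from the testis, by 0.42 (adjusted p = 0.210). Hspa1l, which stands next to Hspa1a in the RefSeq gene order, had both group means below the array median and differed by -0.05.

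Among the 8 mitochondrial chaperones, 3 were higher in NICD-OE-HEC and 0 lower (37.5% called, against 10.5% of all probe sets). They were the chaperonin Hspd1 (HSP60), its lid Hspe1 (HSP10) and the matrix HSP70 Hspa9 (mortalin), the core of protein folding in the mitochondrial matrix. The class median was -0.01, since the 5 J-domain members did not follow.

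Hspd1 read 7.72, 7.71, 7.95, 8.18, 7.84 and 7.73 in NICD-OE-HEC, against 7.54, 7.15, 7.06, 7.42, 7.44 and 7.34 in Control. All NICD-OE-HEC values lay above all Control values. The mean was 7.86 ± 0.18 in NICD-OE-HEC and 7.32 ± 0.19 in Control (SD, n = 6 each), a difference of 0.53 (SE 0.11), or 1.45-fold, with a limma adjusted p of 0.00452. Hspa9 read 9.25, 9.22, 9.37, 9.42, 9.29 and 9.38 in NICD-OE-HEC, against 9.01, 9.10, 8.79, 8.95, 8.94 and 8.99 in Control, again without overlap. Its difference was 0.36 (SE 0.08), or 1.28-fold, with an adjusted p of 0.00744. Hspd1 and Hspa9 kept their calls in each of the 12 omissions of a single array, at 0.47 to 0.58 for Hspd1 and 0.32 to 0.39 for Hspa9.

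Hspe1 read 6.06, 5.99, 5.94, 6.03, 5.84 and 5.98 in NICD-OE-HEC, against 5.79, 5.79, 5.87, 5.51, 5.55 and 5.33 in Control. Only Control replicate 3 (5.87) reached into the NICD-OE-HEC range. The difference was 0.33 (SE 0.10), or 1.26-fold, with an adjusted p of 0.0458. The call was lost in 8 of the 12 omissions: NICD-OE-HEC replicates 1, 2, 3, 4 and 6 and Control replicates 4, 5 and 6. It was also lost with an intensity trend and robust settings (adjusted p = 0.0531). Hspd1 and Hspe1 stand side by side and both were higher, but their values showed no stable relation from sample to sample: r was 0.00058 in NICD-OE-HEC (exact permutation p = 1.00, n = 6) and -0.428 in Control (exact permutation p = 0.372, n = 6). Without the 2 samples farthest from the median, r was -0.936 in NICD-OE-HEC and 1.00 in Control (4 samples each), so the values of r rest on those samples.

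In the fit with the early-response covariate, these matrix chaperones differed by 0.42 for Hspd1 (SE 0.17, adjusted p = 0.293), 0.48 for Hspe1 (SE 0.16, adjusted p = 0.138) and 0.36 for Hspa9 (SE 0.13, adjusted p = 0.191). Without the covariate they differed by 0.53 for Hspd1, 0.33 for Hspe1 and 0.36 for Hspa9. With it, Hspa1a differed by 0.061 (SE 0.25) and Hspa1b by 0.081 (SE 0.30), and in neither case did a call remain. The covariate itself differed between the groups, so this fit cannot separate its part from that of the genotype. Whether the 2 kinds of chaperone differ in this was not tested. The J-domain members of the mitochondria differed by 0.02 for Dnaja3, -0.04 for Dnajc11, -0.09 for Dnajc15 and -0.25 for Dnajc30. Dnajc19, a part of the import motor at the inner membrane, differed by -0.45 (adjusted p = 0.146). Its NICD-OE-HEC mean, 3.42, lies below the array median, so this size is uncertain.

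The cytosolic chaperonin TRiC, the ring that folds actin and tubulin and is built like HSP60, is the cytosolic counterpart of Hspd1. Of its 8 measured subunits, 5 were higher in NICD-OE-HEC and 0 lower, with a median difference of 0.29, against 10.5% called and a median of -0.01 over all probe sets. The largest was Cct2, which read 8.53 to 8.74 in NICD-OE-HEC and 8.16 to 8.31 in Control, with a difference of 0.38 (SE 0.08, adjusted p = 0.00392). Cct5 differed by 0.34 (adjusted p = 0.0215), Cct4 by 0.31 (adjusted p = 0.0393), Cct6a by 0.30 (adjusted p = 0.0148) and Tcp1 by 0.27 (adjusted p = 0.0443). Cct3 (0.23), Cct8 (0.23) and Cct7 (0.18) did not pass the test. Cct2 and Cct6a kept their calls in all 12 omissions, while Cct5 lost its call in 3 (NICD-OE-HEC replicates 2 and 3 and Control replicate 5), Cct4 in 9 and Tcp1 in 11, and 2 to 4 subunits stayed called in any one of them. With the early-response covariate 0 subunits were called, and 3 had an unadjusted p under 0.05. The share of all probe sets at that level in this fit is not given here, so the 3 have no comparison.

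**Figure D4:**
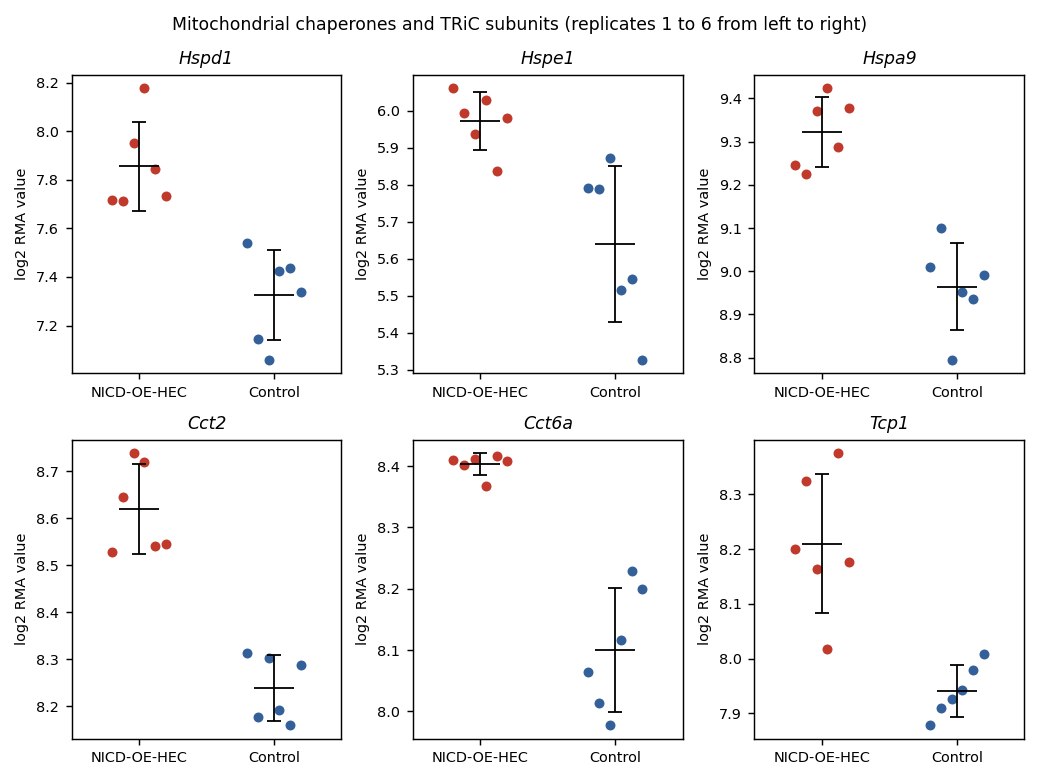
Log2 RMA value of the mitochondrial chaperones Hspd1, Hspe1 and Hspa9 and of the TRiC subunits Cct2, Cct6a and Tcp1 on each array, NICD-OE-HEC left and Control right, with the mean and SD (n = 6 each) as bars and replicates 1 to 6 running from left to right within a group. The groups do not overlap except for Hspe1, where Control replicate 3 (5.87) exceeds NICD-OE-HEC replicate 5 (5.84).

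Among the 10 chaperones of the endoplasmic reticulum, 0 were higher and 1 was lower, and the median difference was -0.15. The lower one was Dnajc3, also named P58IPK, a cochaperone of BiP that restrains the stress kinase PERK. Dnajc3 read 9.09, 8.72, 8.99, 8.95, 8.88 and 8.92 in NICD-OE-HEC, against 9.38, 9.07, 9.34, 9.49, 9.15 and 9.39 in Control. NICD-OE-HEC replicate 1 was the only one above the lowest Control, Control replicate 2. The mean was 8.92 ± 0.12 in NICD-OE-HEC and 9.30 ± 0.16 in Control (SD, n = 6 each), a difference of -0.38 (SE 0.09, limma adjusted p = 0.0155), and the call stood in each of the 12 omissions.

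The best-known lumenal chaperones did not pass the test. Hspa5, or BiP, the HSP70 of the endoplasmic reticulum, differed by 0.28 (95% interval -0.12 to 0.68, adjusted p = 0.448). Hsp90b1, its HSP90, differed by 0.00 (95% interval -0.27 to 0.28), and the J-domain cofactors Dnajb9 and Dnajb11 by 0.01 and 0.00. Dnajc10, a reductase with a J domain, differed by -0.24 (adjusted p = 0.0868), and the membrane-bound Dnajb14 by -0.30 (adjusted p = 0.111).

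In the wider endoplasmic reticulum stress list, 3 of 20 measured genes were lower and 1 higher (20% called, against 10.5% of all probe sets). The median difference was 0.01. Herpud1 and Sel1l serve the degradation of misfolded proteins from the endoplasmic reticulum. Herpud1 read 8.13 to 8.54 in NICD-OE-HEC and 8.93 to 9.17 in Control, a difference of -0.70 (SE 0.09, adjusted p = 7.37e-05), larger than that of any of the 72 members in that direction. Sel1l differed by -0.39 (adjusted p = 0.0465, lost in 10 of the 12 omissions). Eif2ak3, which encodes PERK itself, differed by -0.31 (adjusted p = 0.0182). Ppp1r15a, or GADD34, which helps to reverse the phosphorylation set by PERK, was higher by 0.90 (adjusted p = 0.0230), lost its call without NICD-OE-HEC replicate 3, 4 or 5 or Control replicate 4, and differed by -0.043 with the early-response covariate.

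Of the 6 other small heat shock proteins, 0 were higher and 1 was lower, with a median of -0.14. Hspb6, or HSP20, known from smooth and cardiac muscle, read 4.47 to 4.84 in NICD-OE-HEC and 4.68 to 5.34 in Control. Its difference was -0.37 (SE 0.11, adjusted p = 0.0495), and the call was lost in 11 of the 12 omissions, all but Control replicate 1. The related crystallin Cryab, a small heat shock protein in its own right, differed by 0.42 (adjusted p = 0.0849), and Cryaa, the lens form, by -0.11.

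Most J-domain proteins outside the classes above did not pass the test. Of the 3 other type A members 0 were called, and the largest difference was that of Dnaja2, a cytosolic partner of HSC70, at 0.17 (adjusted p = 0.344). Of the 7 other type B members 0 were called, the largest difference was 0.21 for Dnajb5 (adjusted p = 0.236), and 5 of the 7 had both means below the array median. In both of these classes 0 members had an unadjusted p under 0.05.

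Of the 19 other type C members, 1 was lower and 0 higher, 13 had negative differences and the class median was -0.06. 9 of the 19 had an unadjusted p under 0.05 (47.4%, against 21.7% of all probe sets). Dnajc27, a small GTPase with a J domain, averaged 3.53 ± 0.26 in NICD-OE-HEC and 3.99 ± 0.15 in Control (SD, n = 6 each), a difference of -0.46 (SE 0.12, adjusted p = 0.0223). Its NICD-OE-HEC mean lies below the array median, so the size of the change is uncertain, and the call was lost without NICD-OE-HEC replicate 2 or Control replicate 1 or 3. Dnajc22 had the largest positive difference of the class, 0.57 (adjusted p = 0.0780), with an NICD-OE-HEC mean of 3.91 and a Control mean of 3.34. That Control mean lies below the array median, so this size is uncertain too. The next largest negative differences were -0.39 for Dnajc17 (adjusted p = 0.134), -0.37 for Dnajc4 (adjusted p = 0.102) and -0.31 for Dnajc28 (adjusted p = 0.0810), none of which passed the test.

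Of the heat shock factors, Hsf2, which acts mainly in development and can join the stress response, was analysed here. It ran from 4.10 to 4.63 in NICD-OE-HEC and from 4.06 to 4.80 in Control and differed by -0.09 (95% interval -0.38 to 0.20, adjusted p = 0.792). In the list of factors and regulators, 0 of 6 genes were called by limma and 2 had an unadjusted p under 0.05. The largest differences there were 0.23 for Hsbp1, a small protein that binds heat shock factor (adjusted p = 0.217), and -0.20 for the deacetylase Sirt1 (adjusted p = 0.146).

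The partners that end the HSP70 cycle or work with HSP90 gave a few calls. Of 10 nucleotide exchange factors, 3 were lower and 0 higher (30% called, against 10.5% of all probe sets), with a median of -0.02. Bag4, a BAG-domain protein, differed by -0.45 (adjusted p = 0.00653), and its values ran from 5.36 to 5.82 in NICD-OE-HEC and from 5.96 to 6.13 in Control. Sil1, the exchange factor of BiP, differed by -0.35 (adjusted p = 0.0103), and Bag5, another BAG protein, by -0.32 (adjusted p = 0.0343, lost in 8 of the 12 omissions). Sil1 and Dnajc3, which both act on BiP, were lower, and BiP itself (Hspa5) was not called.

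Of 15 HSP90 cochaperones, 1 was higher and 0 lower, with a median of 0.10. Fkbp5, a cochaperone of steroid receptors that glucocorticoids induce, averaged 7.69 ± 0.39 in NICD-OE-HEC and 7.02 ± 0.26 in Control (SD, n = 6 each), a difference of 0.67 (SE 0.17, adjusted p = 0.0182). The call stood in each of the 12 omissions of 1 array but not without both NICD-OE-HEC replicate 4 and Control replicate 2 (0.54, adjusted p = 0.0680), and with the early-response covariate the difference was 0.062. Of the 8 genes of mitochondrial protein quality control, 0 were called by limma and 3 had an unadjusted p under 0.05, with the largest differences at 0.42 for Atf5, a factor of the mitochondrial stress response (adjusted p = 0.109), and -0.37 for the protease Htra2 (adjusted p = 0.0780). Of 9 measured proteasome and ubiquitin genes, 0 were called by limma and 0 had an unadjusted p under 0.05, with Psma5 at 0.36 and Psmc4 at -0.07.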

How the data were processed

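The authors deposited 1 log2 expression value for each probe set on each array, made with RMA, per the submitters' processing notes. No source used here names the chip definition or a genome build. There are no detection calls, and the arrays share their quantiles, so a change of most genes in one direction would not show. Probe sets were named from the platform annotation, and all 72 members matched the RefSeq gene table of GRCm38.p6 with the same symbol. Differences were fitted on all 25428 probe sets with limma 3.58.1 in R 4.3.3 (lmFit, eBayes, 2 groups, no covariates), two-sided, with Benjamini-Hochberg adjustment over all of them. A call is an adjusted p under 0.05. The number of arrays limits the precision.

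The members and lists were chosen with earlier results of these data known. The classes and the correlations of gene pairs were added after the values were seen. Named genes are a set of inducible or well-known members, every called member, the largest difference in a class without a call, and up to 4 called genes per pathway list or the 2 largest where none was called. Tcp1, Cct3, Cct7, Cct8 and further uncalled members were named after their values were seen. The replicate number was tried as a block. Over all probe sets, correlations of deviations between the 6 same-numbered pairs ran from -0.10 to 0.22, with 3 over 0.1. The hepatocyte marker mean was highest in replicate 1 of each group (8.53 in NICD-OE-HEC, 7.84 in Control). The early-response mean was highest in replicate 5 of each group (8.37 in NICD-OE-HEC, 7.12 in Control). Whether the numbers pair the samples is therefore not settled. Other alternatives were median centring, quantile normalization, filters on dim probe sets, array weights, eBayes with an intensity trend and robust settings, omitted arrays, the early-response covariate, a stricter threshold and the mean of a gene's probe sets. The fit was tested on simulated data.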

Additional observations from a re-analysis of the deposited data

Results flagged for a closer look

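In 4 of 88 groups of 6 arrays tested, 1 array stood apart from the rest of its group by more of the group's range than Dixon's 95% critical value. Chance gives about 1 in 20. Hspa8 read 12.24 in NICD-OE-HEC replicate 5, with the nearest sample at 11.71. Hspa12a read 5.87 in Control replicate 2, with the nearest at 5.43. The TRiC subunit Cct6a read 8.37 in NICD-OE-HEC replicate 4, with the nearest at 8.40, in a group whose whole range is small. The proteasome gene Psmc4 read 7.45 in NICD-OE-HEC replicate 2, with the nearest at 7.25.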

How the results depend on the processing

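Among the 72 members, 6 higher and 4 lower calls became 2 to 7 higher and 2 to 5 lower when 1 array was left out. The counts over all probe sets in those fits are not given here, so these ranges have no comparison. NICD-OE-HEC replicate 4 and Control replicate 2 were also left out together, and the measure that picked them is not given here. Without both, 3 members were higher and 4 lower, against 1289 and 1481 of all 25428 probe sets. Hspa1a, Hspa1b, Hspe1, Hspa12b, Hspb6, Cct4, Fkbp5, Bag5 and Ppp1r15a lost their calls, while Cryab and Atf5 gained one. Of the members called in the main fit, Hspd1, Hspa9, Hspa12a, Dnajc3 and Dnajc27 kept their calls. The member counts therefore include gains by members not identified here. At an adjusted p under 0.01 there were 2 members higher and 1 lower, against 731 and 831 of all probe sets. With the early-response covariate 0 members were higher and 0 lower, against 502 and 443 of all probe sets. The Hspa1a difference was 0.67 (adjusted p = 0.0523) with an intensity trend and robust eBayes, 0.63 (adjusted p = 0.108) without both arrays and 0.061 with the covariate, and 0.54 to 0.79 with 1 array left out. The Hspa1b difference was 0.83 (adjusted p = 0.0778) without both arrays and 0.081 with the covariate, and 0.80 to 1.07 with 1 array left out. That of Dnajb1 was 0.04 to 0.28 with 1 array left out. With the covariate the sign turned for Dnajb1 (-0.38), Hsph1 (-0.24), Hspa8 (-0.089), Dnajb5 (-0.054), Ppp1r15a (-0.043) and Psmc4 (0.0062), of which only Ppp1r15a had been called; the cause was not tested. The replicate number as a block left 4 members higher and 3 lower, against 1294 and 1213 of all probe sets. The block ended the calls of Hspe1, Hspa12b, Hspb6, Bag5 and Eif2ak3. It left 2 TRiC subunits higher (Cct4, Cct6a and Tcp1 were lost). Hspa1a and Hspa1b kept their calls under the block, at limma adjusted p of 0.0112 for Hspa1a and 0.0234 for Hspa1b. Without the block these were 0.0445 for Hspa1a and 0.0316 for Hspa1b. Dnajb1 stayed uncalled under the block (adjusted p = 0.550). The labels give no batch, and whether same-numbered samples share a preparation was not tested, so the losses under the block stand as a limit. The intensity trend gave 5 members higher and 3 lower, against 1247 and 1433 of all probe sets. It also ended the calls of Hspe1 and Hspb6, and a member not identified here gained a higher call. Array weights gave 7 members higher and 6 lower, against 1513 and 1805 of all probe sets, and also added calls of Cryab and Atf5. Dropping the dimmest 50 percent of probe sets gave 8 members higher and 6 lower, against 1325 and 1629 of the probe sets kept. That filter added Hspb1 and Htra2. In both settings further members, not identified here, gained calls. Median centring, renewed quantile normalization, dropping the dimmest 25 percent of probe sets and taking the mean of a gene's probe sets left every named call as it was. Without detection calls, whether members below the array median rise above background is not known.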
